A study of Mus musculus with 16 samples.

Results

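Levels of 10 imprinted genes and RNAs were followed in P19 cells: H19, Igf2, Meg3, Dlk1, Rian, Mirg, Peg3, Peg10, Cdkn1c and Grb10. A probe was assigned to a gene when the array's annotation named that gene, directly or through the accession it gives, and the array carries 27442 gene names in all. Of them 9 had a probe, 22 probes in all, and 8 could be tested. The 16 arrays of 1 colour fall into 4 conditions of 4 arrays each. All come from P19, a mouse embryonal carcinoma line. Cells were transfected with a let-7a mimic (let-7a), with siRNA against Sfpq (siSfpq), an RNA-binding protein of the nucleus, with both (let-7a + siSfpq), or as control, and RNA was taken after 48 h. The control siRNA and control mimic are spelled out in the methods for other assays of the study and not for the arrays. Arrays 1 and 2 of each condition differed about as little as spots of 1 probe on 1 array do and were averaged, so that 12 samples remain, 3 in each condition, called replicates 1 (the mean of arrays 1 and 2), 3 and 4 here. The methods also speak of 3 replicates, as transfected P19 cells. How far these were grown apart is not given, and p-values measure the spread between these samples, part of which may be technical.

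Imprinted genes are transcribed from 1 parental copy, chosen by a methylation mark laid down in the egg or the sperm. In the Dlk1-Dio3 cluster the paternal copy makes protein-coding RNAs such as Dlk1, a transmembrane ligand related to those of Notch, while the maternal copy makes the long noncoding RNAs Meg3, Rian and Mirg, which also host miRNAs and small nucleolar RNAs. At the Igf2-H19 locus a shared enhancer serves either Igf2, a fetal growth factor, from the paternal copy or the noncoding RNA H19 from the maternal one, and Cdkn1c and Grb10 restrain growth whereas Peg10 is needed for the placenta. The arrays do not tell the parental copies apart, and a level is that of both together.

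The agent of the overexpression was let-7a, whose mature sequence in RefSeq (build GRCm38.p6) is shown with its seed, bases 2 to 8, in capitals. Probes whose values carry most of the results are shown with it, as the scanner files list them, in lower case because no part of a probe was singled out. Those named by gene target noncoding RNAs, and positions are those of the files, build mm9. No genome of that build was used here, so exons are not given.
let-7a-5p: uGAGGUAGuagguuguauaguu
Meg3 probe, chr12:110809678-110809737, forward strand: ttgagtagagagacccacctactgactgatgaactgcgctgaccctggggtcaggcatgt
Mirg probe, chr12:110968992-110969051, forward strand: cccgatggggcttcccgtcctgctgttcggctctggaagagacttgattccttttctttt
Mirg probe, chr12:110979653-110979712, forward strand: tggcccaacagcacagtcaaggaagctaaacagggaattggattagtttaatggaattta
Mirg probe, chr12:110987569-110987628, forward strand: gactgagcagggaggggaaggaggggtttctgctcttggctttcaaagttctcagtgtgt
Probe named by its region only, chr12:110897958-110898017, forward strand: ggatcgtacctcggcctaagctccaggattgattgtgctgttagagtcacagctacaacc
H19 probe, chr7:149761756-149761815, reverse strand: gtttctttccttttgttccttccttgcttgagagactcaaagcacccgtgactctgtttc
Of 47 probes searched, those of the 10 genes and those of the Dlk1-Mirg interval that are named by region only and passed the filter on dim probes, 0 hold the reverse complement of that seed. A probe covers only a short stretch of an RNA, so this count cannot tell whether the RNAs hold such a site. RefSeq places 112 mature miRNAs between the start of Meg3 and the end of Mirg, 3 of them within Meg3, 6 within Rian and 19 within Mirg, and 0 share the seed of let-7a. These miRNAs were not measured by the probes described here.

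Sfpq itself, the targeted gene, stood at a log2 intensity of 11.98 to 12.07 in control and at 10.55, 11.46 and 10.62 with siSfpq in replicates 1, 3 and 4. The differences from control were -1.52, -0.52 and -1.36, smallest in replicate 3, and the main results of Meg3, Mirg, Dlk1 and Grb10 are also given without that replicate. The change was -1.13 ± 0.19 (limma adjusted p = 0.00728). In let-7a + siSfpq Sfpq stood at 11.31 to 11.49, higher than with siSfpq alone in every replicate, by 0.76, 0.03 and 0.79 (limma adjusted p = 0.0994, and 0.0383 with the replicate as a block). Lin28a, a known target of let-7a, fell by 0.77 with the mimic (limma adjusted p = 0.00252). Pou5f1 and Sox2, which mark pluripotent cells, were well detected in control, at 14.43 to 14.85 and 11.03 to 11.11, whereas Zfp42, another such marker, did not pass the filter on dim probes. Across all 18338 genes tested, limma called 6.94% with let-7a and 13.7% with siSfpq at a Benjamini-Hochberg adjusted p under 0.05.

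Meg3 had the largest change with siSfpq of the 8 tested genes, and it fell. Its probe, well above background on all 16 arrays, read 7.98, 7.18 and 7.94 in control and 6.56, 6.41 and 6.24 with siSfpq in replicates 1, 3 and 4. No sample with siSfpq reached the lowest control, and replicate 3 changed least. The log2 change was -1.29 ± 0.36 (SE, n = 3), a 2.45-fold fall, with a limma adjusted p = 0.0384, and it was -1.56 ± 0.12 without replicate 3 (limma adjusted p = 6.04e-05). An exact permutation test of 3 against 3 gave the smallest p it can, 0.1. The change was -1.23 and -1.09 without replicate 1 or 4 in every condition (limma adjusted p = 0.469 and 0.549), in fits in which limma called 0 of 18338 genes while 1864 and 1721 had an unadjusted p under 0.05. The call was also lost without either of these replicates in control or in siSfpq alone (-1.37 to -1.15, limma adjusted p = 0.109 to 0.146), and without let-7a + siSfpq replicate 4 (0.0527). It was lost as well with normexp background correction (-0.87, limma adjusted p = 0.0650), with the value table of the authors (-1.02, 0.0528) and with only the groups compared in the fit (-1.29, 0.0592), where limma called 0 of 18338 genes and 4728 had an unadjusted p under 0.05.

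With let-7a, Meg3 read 8.90, 7.75 and 9.04. Each value lay above that of control in the same replicate, by 0.92, 0.57 and 1.11, although the groups overlapped, replicate 3 being low in both. The replicate numbers paired the samples (correlations of their deviations from the group means of 0.284 to 0.707), and the limma adjusted p of the change of 0.87 ± 0.36 was 0.199 without the replicate as a block and 0.0197 with it. Without replicate 3 the change was 1.01 ± 0.12 (limma adjusted p = 0.00103). Over 15 fits that left out a replicate or a single sample, it ran from 0.61 to 1.27 and was called in 2. With let-7a + siSfpq, Meg3 read 7.68, 6.68 and 7.61, between the other 2 treatments in every replicate and below control in every replicate, by 0.30, 0.50 and 0.33. That change of -0.38 ± 0.36 did not pass the test (limma adjusted p = 0.823). Set against let-7a alone it was -1.24 (limma adjusted p = 0.0937, and 0.00714 with the replicate as a block), and set against siSfpq alone it was 0.92 (0.125, and 0.0135 with the block). The latter was 1.12, 0.27 and 1.37 in replicates 1, 3 and 4. Sfpq too was higher with both agents than with siSfpq alone, as given above, and its part in this difference and in the interaction was not tested. The interaction, which asks whether the let-7a change differed with and without siSfpq, was 0.05 ± 0.51 (limma adjusted p = 0.998). The other 2 Meg3 probes, at chr12:110782745-110782804 and chr12:110799558-110799617, were well above background on 2 and 9 of 16 arrays and did not pass the filter, and averaging them in gave a change of -0.13 with siSfpq (limma adjusted p = 0.957).

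**Figure D1:**
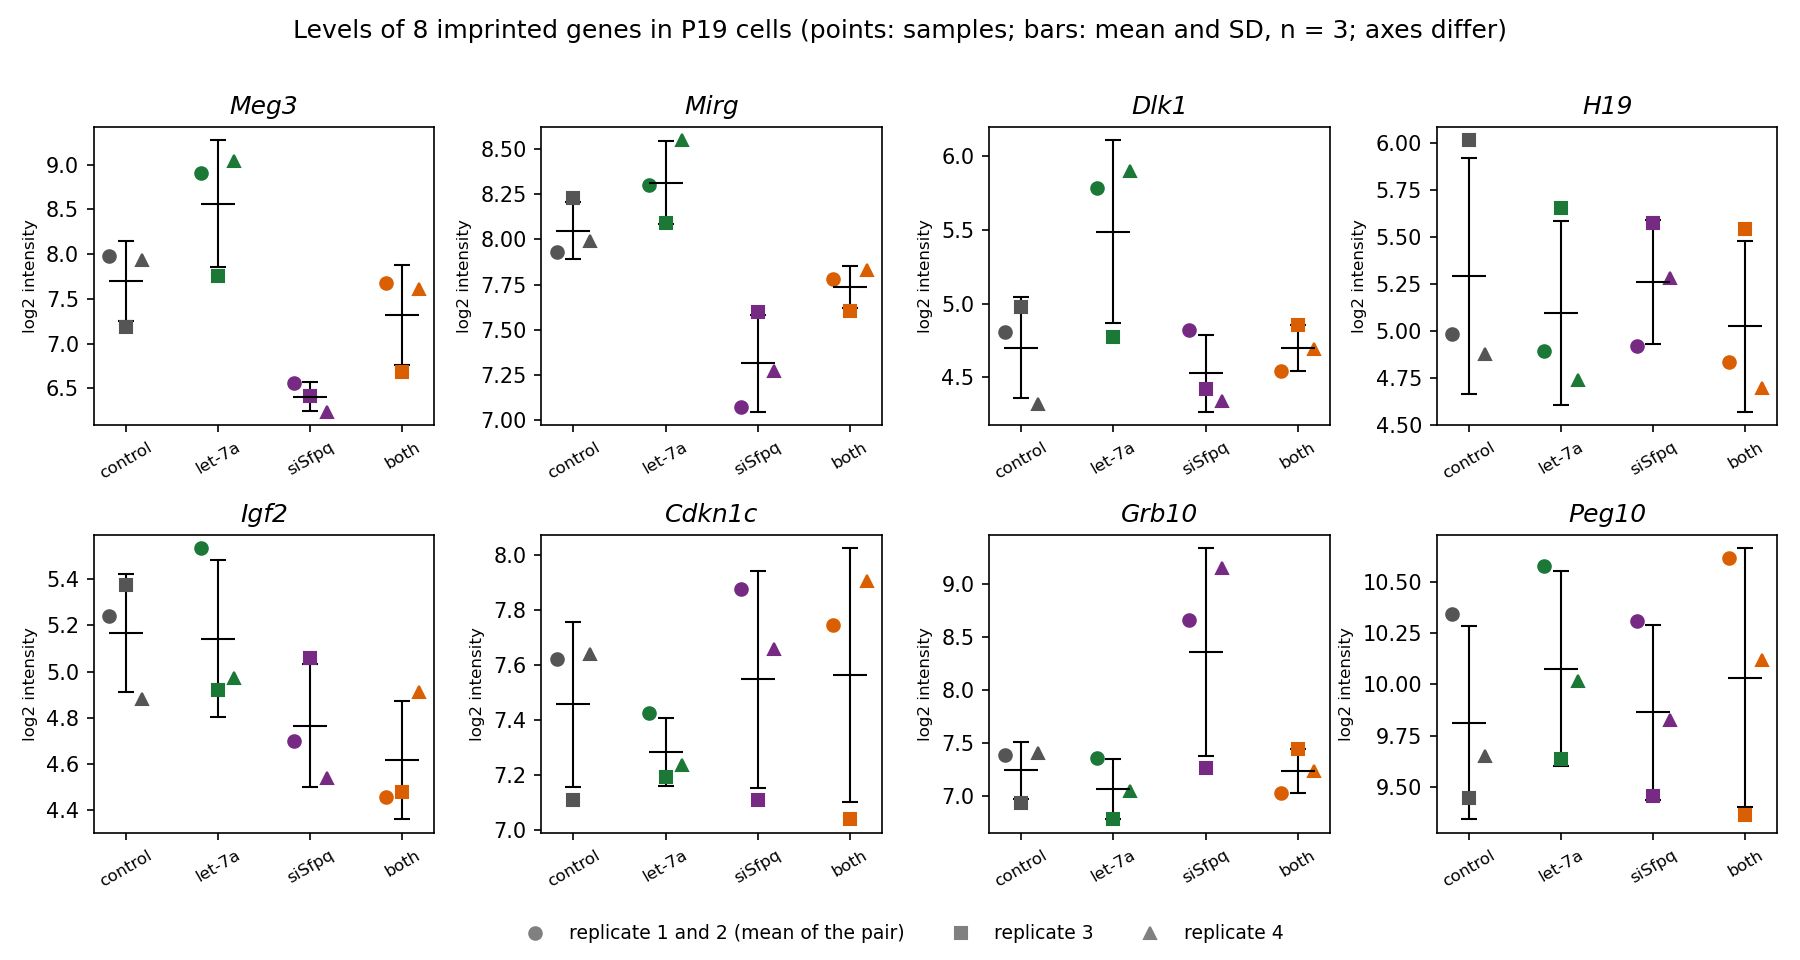
Log2 intensity of the 8 tested imprinted genes in each sample, by condition (both, let-7a + siSfpq), with the mean and SD of 3 samples and marks for the replicate. Meg3 in siSfpq sits between 6.24 and 6.56, below every control sample, while H19 is highest in replicate 3 of every condition.

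Mirg, the noncoding RNA at the far end of the cluster, had 3 probes that passed the filter, and they are described one by one. The probe at chr12:110987569-110987628 read 6.81, 6.26 and 6.59 in control, 5.73, 5.80 and 6.0 with siSfpq and 7.51, 6.70 and 7.32 with let-7a. The siSfpq samples lay below all controls and the let-7a samples overlapped them, as with Meg3. The probe at chr12:110979653-110979712 read 5.48, 5.54 and 5.49 in control and 4.11, 4.65 and 4.17 with siSfpq, where it was well above background on only 2 of 4 arrays. With let-7a it read 6.44, 5.16 and 6.38, so that it was lower than control in replicate 3. The probe at chr12:110968992-110969051 read 11.50, 12.88 and 11.89 in control and 11.38, 12.36 and 11.65 with siSfpq, groups that overlapped, and it was highest in replicate 3 of every condition.

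Averaged over its 3 probes, Mirg changed by -0.73 ± 0.17 with siSfpq (limma adjusted p = 0.0215, and 0.00762 with the replicate as a block) and by -0.79 without replicate 3 (limma adjusted p = 0.00113). Fitted one by one, in a fit chosen after the data were seen, the probes starting at 110979653, 110987569 and 110968992 had log2 differences of -1.19, -0.71 and -0.29, and 0 of the 3 passed the test (limma adjusted p = 0.0515, 0.0788 and 0.723), where 9.77% of 32940 probes did. Without replicate 3, where 42.3% of probes passed, those at 110979653 and 110987569 did, with limma adjusted p = 0.000463 and 0.00402, and that at 110968992 did not (0.679). With the replicate as a block, where 33.3% of probes passed, the same pair did, with limma adjusted p = 0.0184 and 0.00824. The averaged call was also lost with normexp (-0.35, limma adjusted p = 0.101), with the value table of the authors (-0.45, 0.0503), with the brightest probe only (-0.29, 0.699), with only probes well above background on all arrays (-0.50, 0.0681), with only the groups compared in the fit (-0.73, 0.0811), without any 1 control sample (-0.79 to -0.64, limma adjusted p = 0.0621 to 0.0689) and without siSfpq replicate 1 or 4 (-0.61 and -0.71, limma adjusted p = 0.105 and 0.0903). Without replicate 1 or 4 in every condition, where limma called 0 of 18338 genes as given above, it was -0.67 and -0.74 (limma adjusted p = 0.452 and 0.473). With let-7a, the difference of Mirg from control was 0.27 ± 0.17 (limma adjusted p = 0.441), and 0.46 without replicate 3 (limma adjusted p = 0.0222). With both agents it was below control, at -0.31, with no overlap of the samples, and did not pass the test (limma adjusted p = 0.558).

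No probe of the array carries the name Rian or a synonym of it, and Rian was not analysed here. RefSeq orders the cluster as Dlk1, Meg3, Rtl1, Rian, Mirg and Dio3. Between the Rtl1 probe and the first Mirg probe lie 25 probes of the forward strand and 16 of the reverse strand that are named by region only, and these were not assigned to a gene. Of those on the forward strand 8 passed the filter, and their log2 difference with siSfpq had a median of -0.16 and ran from -1.40 to 0.49, with 5 below 0. The probe at chr12:110897958-110898017 read 5.56, 5.40 and 5.35 in control, 4.89, 4.92 and 4.84 with siSfpq and 6.10, 5.54 and 6.11 with let-7a. Its siSfpq samples lay below every control, a difference of -0.56 ± 0.20 (limma adjusted p = 0.0940, 0.0322 with the block and 0.0232 without replicate 3). The neighbouring probe at chr12:110896272-110896331 differed by -0.69 (limma adjusted p = 0.110, 0.0204 with the block and 0.0218 without replicate 3). The probe at chr12:110913620-110913679 differed by -1.40 but was well above background on only 1 of 4 siSfpq arrays. That at chr12:110845631-110845690, which differed by 0.49, was so on 1 of 4 control and 2 of 4 siSfpq arrays and passed the filter through let-7a only. Of these 8 probes 0 passed the test with siSfpq, and 3 did with the block or without replicate 3, where 33.3% and 42.3% of all probes did. A further 13 probes of the forward strand named by region only lie after the first Mirg probe, and 8 passed the filter. Their differences with siSfpq had a median of -0.12 and ran from -0.62 to 0.46, with 5 below 0, and 0 passed the test (lowest limma adjusted p = 0.143) or passed with the block, while 1 did without replicate 3.

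On the reverse strand 6 of the 16 passed the filter, with a median difference of 0.02, and 0 of these passed the test with siSfpq, 1 with the block and 1 without replicate 3, against the same shares of all probes. The probe at chr12:110848958-110849017 read 3.96, 3.19 and 3.95 in control, 4.76, 4.18 and 4.99 with let-7a and 2.57, 2.86 and 3.34 with siSfpq. Only 1 of 4 control arrays and 0 of 4 siSfpq arrays were well above background, and it passed the filter through let-7a and let-7a + siSfpq only. It is the probe that passed with the block and without replicate 3 (limma adjusted p = 0.0417 and 0.03625), which is therefore no independent result. The antisense partner of Rtl1, 6430411K18Rik, and Rtl1 itself were well above background on 0 of 16 arrays.

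**Figure D2:**
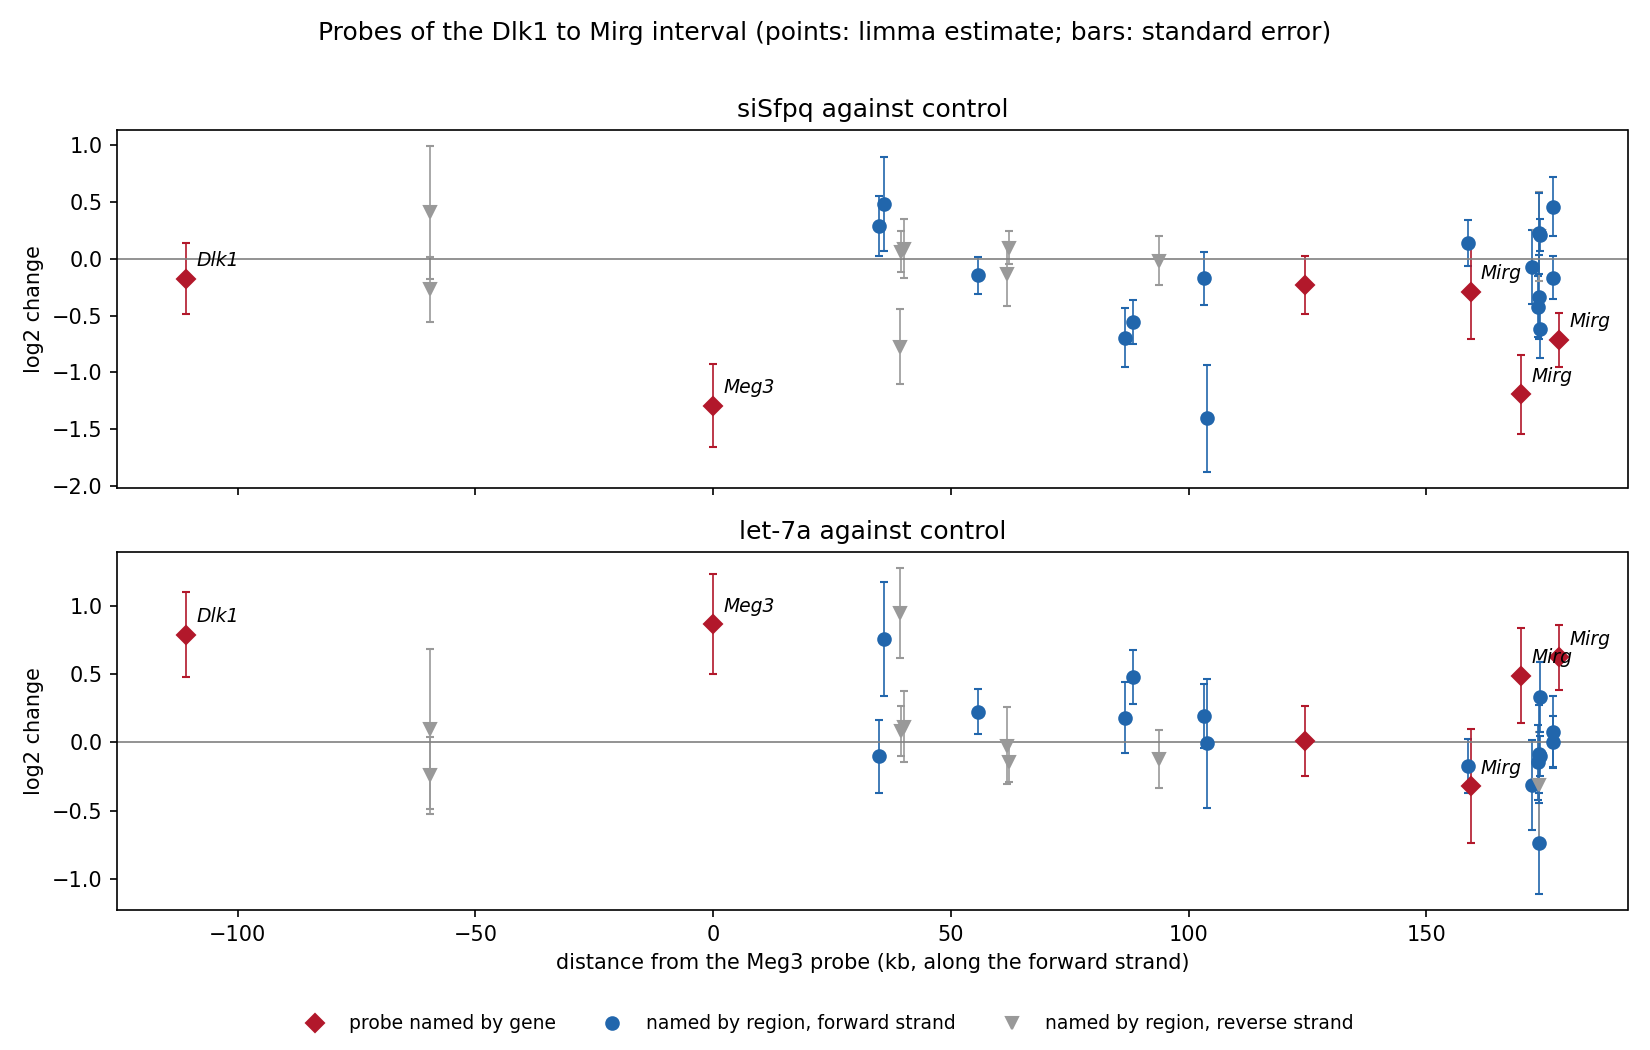
Log2 change with siSfpq and with let-7a of each probe of the Dlk1 to Mirg interval that passed the filter, against its distance in kb from the Meg3 probe, with standard errors (the unlabelled probe named by gene is that of LOC102637727). Meg3 at -1.29 and 2 of the 3 Mirg probes lie low with siSfpq and above 0 with let-7a, where they did not pass the test. Probes named by region only have medians near 0 on both strands, -0.15 with siSfpq and -0.001 with let-7a on the forward strand, 0.06 and -0.025 on the reverse.

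Dlk1 was close to the background. Of its 2 probes, that at chr12:110698502-110698561 was well above background on 0 of 16 arrays, and that at chr12:110698721-110698781 on 14. The latter read 4.81, 4.97 and 4.32 in control and 5.79, 4.78 and 5.90 with let-7a. It was higher in replicates 1 and 4 by 0.98 and 1.59 and lower in replicate 3 by 0.20. The change of 0.79 ± 0.31 did not pass the test (limma adjusted p = 0.168), whereas without replicate 3 it was 1.28 (limma adjusted p = 0.00792). Over 15 fits that left out a replicate or a single sample, it ran from 0.39 to 1.28 and was called in 2. With let-7a + siSfpq Dlk1 read 4.54, 4.85 and 4.70, and with siSfpq 4.82, 4.42 and 4.34, both overlapping control. Without replicate 3 the interaction was -1.24 (limma adjusted p = 0.0439), in a fit that called 22.5% of all genes, and over all replicates it was -0.62 (0.860). Begain, a neighbour of Dlk1 that encodes a protein of synapses, read 10.91, 10.57 and 10.90 in control and 8.56, 9.66 and 8.54 with siSfpq. It fell by 1.87 ± 0.36 (limma adjusted p = 0.0109) and rose by 1.63 with let-7a (limma adjusted p = 0.0196). Dio3, a deiodinase at the other end of the cluster, named after its values were seen, read 4.11, 3.17 and 6.05 in control and 5.27, 4.21 and 4.62 with siSfpq, which overlap (0.25, limma adjusted p = 0.831), and it did not pass with let-7a either (-0.48, limma adjusted p = 0.760).

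The start of Meg3 is shown because Meg3 and the averaged Mirg probes both fell with siSfpq and lie on 1 strand. RefSeq's window (build GRCm38.p6, forward strand) holds 250 bases before and 50 after the annotated start, with the letters of a cAMP response element, TGACGTCA, in capitals.
Meg3 promoter, chr12:109540746-109541045: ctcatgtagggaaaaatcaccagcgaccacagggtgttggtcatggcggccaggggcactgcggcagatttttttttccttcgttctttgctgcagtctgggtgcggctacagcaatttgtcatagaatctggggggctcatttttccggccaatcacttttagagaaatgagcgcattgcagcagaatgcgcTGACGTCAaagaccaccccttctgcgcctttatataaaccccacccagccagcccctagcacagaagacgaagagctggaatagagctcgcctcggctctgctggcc
The element occupies bases 194 to 201 of the window and a TATA box, TATAAA, bases 226 to 231, both before the start. Searched on both strands, TGACGTCA stood in 1.79% and TATAAA in 13.6% of 32851 such windows, and a GC box, GGGCGG, in 35.7%. Among 12 windows of the imprinted genes described here, TGACGTCA was found in 2, the first of Meg3 and that of Peg3. The 12 windows belong to 7 of the 10 genes, and H19, Peg10 and Cdkn1c were not searched. The Meg3 window shown has 13 CG pairs, against a median of 7 in all windows, and the windows of Rian and Mirg have 0 and 10. A further window of Meg3, at chr12:109545148-109545447, has 1 CG pair and none of the motifs searched. A match describes letters and is no measure of binding.

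H19 and Igf2, which share a locus, did not pass the test in any comparison. Of 7 H19 probes, 2 passed the filter, at chr7:149761492-149761551 and chr7:149761756-149761815. Their average read 4.98, 6.01 and 4.88 in control, 4.89, 5.65 and 4.74 with let-7a, and 4.92, 5.57 and 5.28 with siSfpq. With let-7a + siSfpq it read 4.84, 5.54 and 4.69. Replicate 3 was highest in all 4 conditions and the conditions overlapped. H19 differed from control by -0.20 ± 0.37 with let-7a (limma adjusted p = 0.848) and by -0.03 ± 0.37 with siSfpq (limma adjusted p = 0.967), and its 2 probes had opposite signs with siSfpq, -0.28 and 0.21.

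Igf2 had 1 probe, at chr7:149839661-149839720. It read 5.24, 5.38 and 4.88 in control, 5.54, 4.92 and 4.97 with let-7a, and 4.70, 5.06 and 4.54 with siSfpq. With let-7a + siSfpq it read 4.46, 4.48 and 4.91. It was well above background on only 2 of 4 siSfpq arrays. The change with siSfpq, lower in 3 of 3 replicates, was -0.40 ± 0.25 (limma adjusted p = 0.313), and that with let-7a was -0.02 (limma adjusted p = 0.979). The let-7a + siSfpq samples lay below all let-7a samples, by a mean of 0.53, which did not pass the test either (limma adjusted p = 0.335).

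Grb10, an adaptor that binds insulin and Igf1 receptors and restrains their signal, had the highest positive value with siSfpq. Its probe, at chr11:11833165-11833224 and well above background on all arrays, read 7.39, 6.93 and 7.41 in control and 8.66, 7.26 and 9.15 with siSfpq. In replicate 3 Grb10 was 0.33 higher than control, so that its value lay within the control range, and in the other 2 it was 1.27 and 1.74 higher. Sfpq fell least in replicate 3 (-0.52). Of the other 2, the replicate with the larger Sfpq fall (-1.52 against -1.36) had the smaller Grb10 rise. Replicate 3 also stood apart from the others in control, without siSfpq. Whether the Grb10 rise follows the strength of the knockdown was not tested. The change of 1.12 ± 0.38 had a limma adjusted p = 0.0730, which passed with the replicate as a block (0.0234) and without replicate 3 (1.51 ± 0.18, limma adjusted p = 0.000408). Over 15 fits that left out a replicate or a single sample, it ran from 0.72 to 1.66 and was called in 2. With let-7a + siSfpq Grb10 read 7.03, 7.45 and 7.24, overlapping control. Against siSfpq alone this was -1.12 (limma adjusted p = 0.0823, 0.0262 with the block, 0.000227 without replicate 3). The interaction was -0.95 (limma adjusted p = 0.824) and, without replicate 3, -1.58 (limma adjusted p = 0.00558). Sfpq was also higher in let-7a + siSfpq than with siSfpq alone, as given above, and its part in the Grb10 difference was not tested. Of the neighbours of Grb10 on the list of other imprinted genes, Cobl and Ddc, named after their values were seen, differed by 1.20 and -0.79 with siSfpq, and neither passed the test (limma adjusted p = 0.0531 and 0.0930, with the block 0.00471 and 0.00428).

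Cdkn1c, an inhibitor of cyclin-dependent kinases, read 7.62, 7.11 and 7.64 in control, 7.42, 7.19 and 7.24 with let-7a, and 7.88, 7.11 and 7.66 with siSfpq. With let-7a + siSfpq it read 7.75, 7.04 and 7.90. All treatments overlapped control, and the changes were -0.17 ± 0.26 with let-7a and 0.09 ± 0.26 with siSfpq (limma adjusted p = 0.798 and 0.857). Peg10, a gene derived from a retrotransposon, had 2 probes, at chr6:4704589-4704648 and chr6:4709867-4709926. It read 10.34, 9.45 and 9.65 in control, and in each condition replicate 1 was highest and replicate 3 lowest. Its changes were 0.26 ± 0.36 with let-7a and 0.05 ± 0.36 with siSfpq (limma adjusted p = 0.770 and 0.944). Both Peg3 probes, for a zinc finger protein, were well above background on 0 and 1 of 16 arrays, so that Peg3 was not detectable at this sensitivity.

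**Figure D3:**
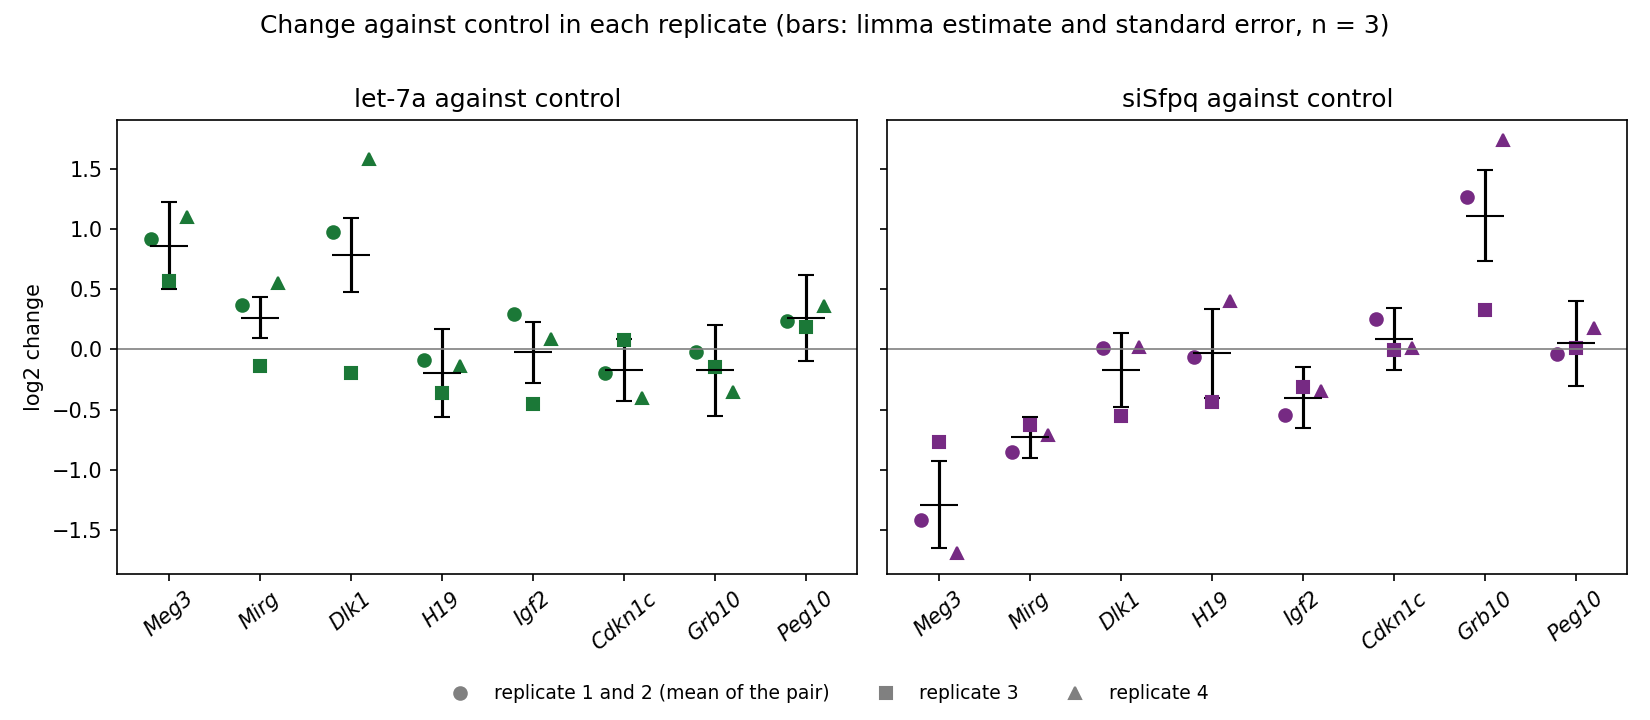
Log2 change of the 8 tested imprinted genes against control, with let-7a on the left and siSfpq on the right, in each replicate, with the limma estimate and its standard error. With siSfpq Meg3 and Mirg lie below 0 in all replicates, and Grb10 lies above 0, at 1.27, 0.33 and 1.74.

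Counted together, 2 of the 8 tested genes, Meg3 and Mirg, were lower with siSfpq and 0 were higher, where 13.7% of all genes were called. The median change of the 8 was -0.10 against 0.01 for all genes. A block for the replicate gave 3 of 8, with 37.8% of all genes called, and without replicate 3 also 3 of 8, with 49.3% called, Grb10 being the addition in both. In these last 2 fits the share of the 8 is not above that of all genes. With let-7a 0 of 8 were called by limma, where 6.94% of all genes were, and 2 had an unadjusted p under 0.05, where 20.8% of all genes did. With the block 1 was called (21.7% of all genes) and without replicate 3 there were 3, Meg3, Mirg and Dlk1 (30.1% of all genes). Leaving out let-7a replicate 3 alone gave 2, Meg3 and Dlk1 (limma adjusted p = 0.0319 and 0.0230), with 9.42% of all genes called.

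For let-7a + siSfpq against control 0 of the 8 were called (1.54% of all genes), and 0 had an unadjusted limma p under 0.05 (11.8% of all genes). Against let-7a there were 0 (3.14% of all genes), 2 with the block, Meg3 and Mirg (13.2%), and 4 without replicate 3 (26.8%), Cdkn1c, Dlk1, Meg3 and Mirg. Without let-7a replicate 3 alone there were 2, Meg3 and Dlk1 (limma adjusted p = 0.0151 and 0.0333, 5.47% of all genes called), and without siSfpq replicate 3 alone there was 1, Mirg (limma adjusted p = 0.0371, 8.58% of all genes called). Against siSfpq there were 0 (10.4%), 2 with the block, Meg3 and Grb10 (33.3%), and 3 without replicate 3 (47.2%). Without siSfpq replicate 3 alone there were 2, Mirg and Grb10 (limma adjusted p = 0.0239 and 0.000527), a share of the 8 that is not above the 31% of all genes called. The interaction was called for 0 of the 8 and for 0% of all genes, of which 1163 had an unadjusted limma p under 0.05. It was called for Dlk1 and Grb10 without replicate 3 and for Grb10 without siSfpq replicate 3 alone (limma adjusted p = 0.0192), fits that called 22.5% and 7.6% of all genes.

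Most genes that mark neurons moved in the direction of Meg3 with let-7a and with siSfpq. Of 15 neuronal markers, all tested, 11 were higher with let-7a and 10 were lower with siSfpq, with medians of 1.66 and -0.98, where 6.94% and 13.7% of all genes were called in either direction. With both agents 1 was higher than control and 0 lower, with a median of 0.11, where 1.54% of all genes were called, whereas Meg3 differed by -0.38. Their summed intensity was 45540 to 55440 in control, 69300 to 96080 with let-7a, 26470 to 34690 with siSfpq and 42150 to 45710 with both, and none was dropped by the filter. The 3 genes with levels most alike to Meg3 over the 12 samples, among 16429 genes well above background on all arrays, were Slc25a27, Fam20c and Srrm4os, with Pearson r of 0.988, 0.986 and 0.986. For H19 they were Prm1, AY171990 and Gm8220 (0.952, 0.949 and 0.948). The samples share conditions and replicates, and the correlations are given as a description. In a mixed culture, fewer cells of a type and less RNA per cell cannot be told apart, and the part of neuronal cells in the Meg3 values was not tested.

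Markers of other cell types were summed in the same way, and their calls stand against 6.94% of all genes with let-7a, 13.7% with siSfpq and 1.54% with both, where 11.8% had an unadjusted p under 0.05. Those of pluripotent cells, 9 of 10 tested, summed to 63930 to 74490 in control, 42020 to 58410 with let-7a, 75860 to 84620 with siSfpq and 58530 to 64130 with both. The sums of both single treatments did not overlap those of control, but a sum follows its brightest genes. With siSfpq 2 of the 9 were higher, Fgf4 and Utf1, and 1 lower, Sox2 (-0.72, limma adjusted p = 0.0273), with a median of 0.08, and with let-7a 3 were lower, Lin28a among them, with a median of -0.37. Those of mesoderm and muscle summed to 2383 to 2617 in control, 1982 to 2218 with let-7a, 4021 to 7191 with siSfpq and 2246 to 3173 with both, 5 of 16 having been dropped by the filter, among them Hand1, Myog and Tnnt2. Of the 11 tested, 1 was called higher with siSfpq, brachyury (T), which rose by 1.91 (limma adjusted p = 0.0105), and the median change of the list was -0.15. With let-7a 3 were called, Hand2 and Kdr higher and brachyury lower (-2.29, limma adjusted p = 0.00367), with a median of 0.09. Those of primitive and visceral endoderm summed to 6829 to 8153 in control, 5868 to 8450 with let-7a, 6183 to 9066 with siSfpq and 10180 to 13410 with both, with Sox17, Afp, Ttr and Apoa1 not passing the filter. Limma called 1 of the 8 tested with siSfpq, and 0 with both, where 2 had an unadjusted p under 0.05. Trophoblast markers summed to 11050 to 12680 in control, 10760 to 13920 with let-7a, 16740 to 17760 with siSfpq and 15360 to 16760 with both, and Elf5, Hand1 and Tpbpa did not pass it. Limma called 3 of the 7 tested with siSfpq, all higher, and 0 with both, where 4 had an unadjusted p under 0.05. The part of these cell types in the values of the imprinted genes was not tested.

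Other imprinted genes, from a list of 61 by locus of which 48 were tested, gave 8 calls with let-7a (7 higher, 1 lower) and 11 with siSfpq (4 higher, 7 lower), where 6.94% and 13.7% of all genes were called. The median change of the list was -0.01 and -0.07, near that of all genes, -0.04 and 0.01. With the replicate as a block there were 11 and 23 calls, where 21.7% and 37.8% of all genes were called, and without replicate 3 there were 18 and 23, where 30.1% and 49.3% were. Nnat, a small membrane protein of neural and endocrine tissue, read 9.91, 10.09 and 9.69 in control, 11.34, 11.26 and 11.22 with let-7a and 8.15, 9.21 and 7.73 with siSfpq, with no overlap between the 3. It rose by 1.38 ± 0.30 and fell by 1.53 ± 0.30 (limma adjusted p = 0.0173 and 0.0112), so that it shared the directions of Meg3 and Begain. Of 7 genes of the Snrpn cluster, all tested, 3 were lower with siSfpq and 0 higher, and with the block 3 were lower and 2 higher, where 13.7% and 37.8% of all genes were called. Magel2 fell by 1.26 (limma adjusted p = 0.00964), and its neighbours Ndn and Snrpn by 0.88 and 0.85 (limma adjusted p = 0.0485 and 0.0176). The others differed by -0.12 (Mkrn3), -0.05 (Peg12), 0.89 (Ube3a) and 0.56 (Atp10a), of which Ube3a and Atp10a passed with the block (limma adjusted p = 0.0449 and 0.0183). Apart from Magel2, these genes were named after their values were seen.

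Of 11 genes listed for the domain next to Igf2 and H19, 9 were tested, and 3 were higher and 0 lower with siSfpq, where 13.7% of all genes were called. With the block, where 37.8% were, 1 was lower as well, Cd81, named after its values were seen (-0.43, limma adjusted p = 0.0131), and the other 5 differed by -0.19 to 0.20. Phlda2, which limits growth of the placenta, read 7.75, 6.83 and 7.90 in control and 11.17, 8.66 and 11.18 with siSfpq, a change of 2.85 ± 0.58 (limma adjusted p = 0.0131) that was -1.29 with let-7a and did not pass there (limma adjusted p = 0.229, 0.0307 with the block). Slc22a18, beside it, rose by 1.10 (limma adjusted p = 0.0131) and Ascl2, a trophoblast transcription factor named after its values were seen, by 0.64 (limma adjusted p = 0.00674). The value of Cdkn1c, in the same domain, was 0.09 as given above. Dcn, a matrix proteoglycan, rose by 1.12 with siSfpq (limma adjusted p = 0.00700) and by 1.07 with both agents (0.0185). With let-7a, Zdbf2 rose by 1.28 and Gnas, a G protein subunit, by 1.08 (limma adjusted p = 0.000783 and 0.00202). Rasgrf1, an exchange factor for Ras, was well above background on 0 of 4 control arrays and on 4 of 4 let-7a arrays, and was at least 2.10-fold higher with let-7a, the bound being set by the dimmest probes well above background on the control arrays. It passed the filter through the let-7a condition only, and its call, 1 of the 8 with let-7a, is therefore no independent result.

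**Figure D4:**
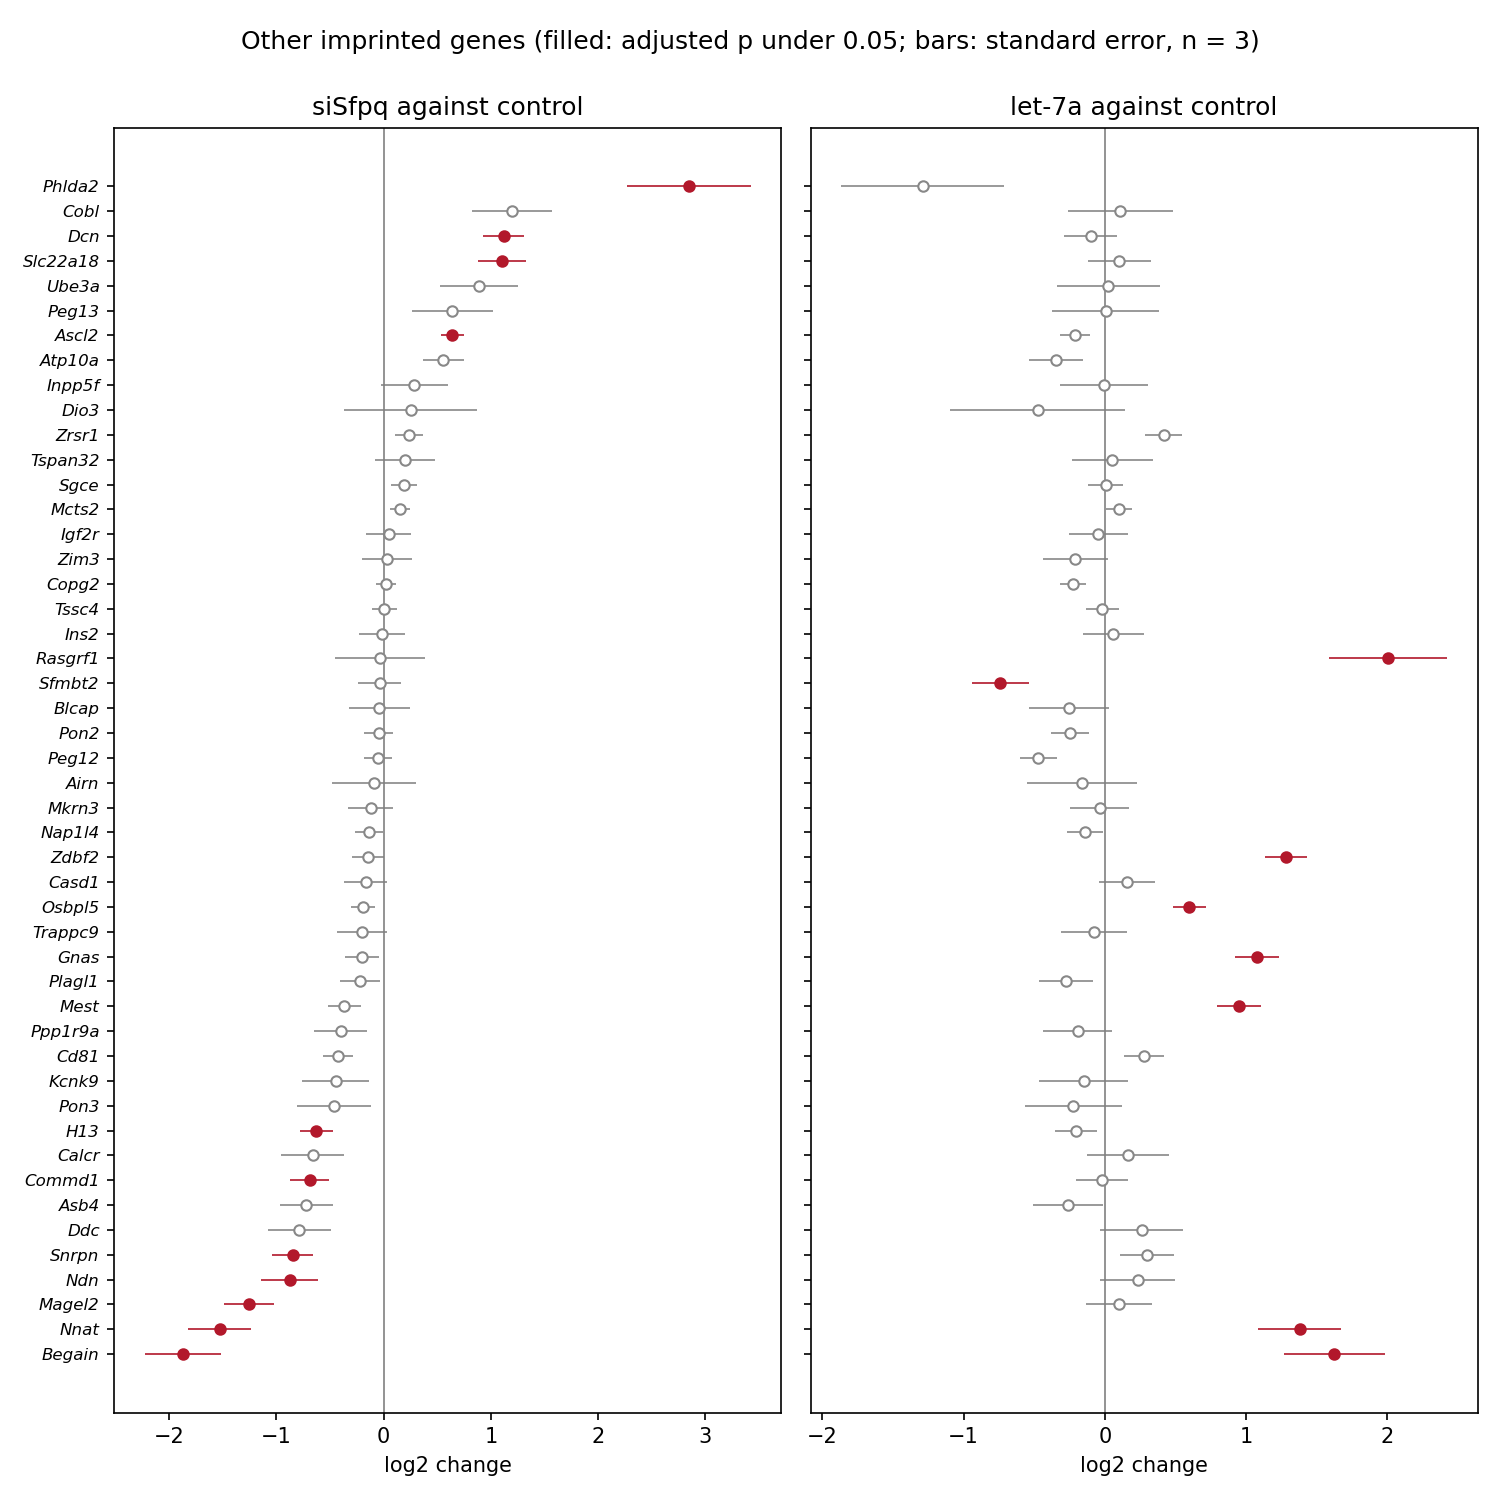
Log2 change with standard error of the 48 other imprinted genes tested, with siSfpq on the left, by which they are ordered, and let-7a on the right, filled where the limma adjusted p was under 0.05. Phlda2 at 2.85 and Begain at -1.87 are the ends of the siSfpq panel.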

How the data were processed

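RNA of P19 cells was hybridised to 16 Agilent arrays of 1 colour, 4 for each condition. Spot intensities were deposited by the authors from Feature Extraction 10.7.3.1, and per the file headers the processed intensity is background-subtracted and detrended. A deposited table of log2 values, which the methods describe as quantile normalized by limma, served as an alternative. Processed intensities were here put on the log2 scale and quantile normalized with limma 3.58.1 in R 4.3.3, so that levels are relative to the other probes of an array. Per array, 33733 to 38464 spots were well above background and 0 were saturated, and the number of arrays limits the precision. A probe had to be well above background on every array of some condition, probes with a value missing on an array were dropped (54), probes of a gene were averaged, and 18338 genes were tested. Low values are surrogates of the scanner software, so that changes near background are compressed or noisy.

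Arrays 1 and 2 of a condition differed by a median SD of 0.0598 to 0.0754 over probes, other pairs of a condition by 0.12 to 0.3834, and spots of 1 probe on 1 array by 0.0578 to 0.0678. They were averaged to 1 sample. Replicate numbers pair the samples, the correlation of deviations from the group means being 0.524 to 0.697 for replicate 1, 0.453 to 0.707 for replicate 3 and 0.284 to 0.465 for replicate 4. Slide 1 holds replicates 1 and 2 of all conditions and slide 2 the others. The 4 conditions entered 1 limma fit with empirical Bayes and an intensity trend, all tests were two-sided, and a call is an adjusted p under 0.05 by Benjamini-Hochberg.

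The genes and lists were chosen with earlier results of these data known. Named are all 10 imprinted genes, Sfpq, Lin28a, at most 10 other imprinted genes called against control with an absolute log2 change of at least 1, at most 6 called Igf axis genes, and 3 genes most alike to each of Meg3 and H19. Other genes of the lists were named after their values were seen, as were Cobl, Ddc, the regulators of imprints, the cell type markers and the genes of the Snrpn cluster and the Igf2-H19 domain that fall outside this rule. Alternatives were the 75th percentile scaling, normexp with offset 50, no filter and a stricter one, the authors' table, the brightest probe of a gene, 16 separate arrays, slide and replicate as blocks, only the groups compared, no intensity trend, an absolute change of at least 1, and leaving out replicates or single samples. Sequences were taken from the files and from RefSeq tables with Python 3.11.15. Files were read in R by data.table, version 1.17.8, and figures were drawn with matplotlib 3.10.9.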

Additional observations from a re-analysis of the deposited data

How the results depend on the processing

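The number of imprinted genes called out of 8 depended on the setting. With siSfpq it was 2, and it was 0 with normexp and with the authors' table (12.8% of all genes called in each) and with only the groups compared in the fit (in which limma called 0 of 18338 genes, 4728 having an unadjusted p under 0.05), and 1 with no filter (5.54%), with the stricter filter (12.9%), with the brightest probe (13.7%) and with an absolute change of at least 1 (4.93%). With no filter the Meg3 average also held its 2 dim probes. The stricter filter left out the Mirg probe at 110979653, the brightest Mirg probe is that at 110968992, and the averaged Mirg change is under 1 in size. For normexp and the authors' table the cause was not tested. Leaving out replicates or single samples gave 0 to 3 calls with siSfpq, 0 to 3 with let-7a, 0 to 0 with both against control, 0 to 4 with both against let-7a, 0 to 3 with both against siSfpq and 0 to 2 for the interaction, where the highest shares of all genes called were 49.3%, 30.1%, 18.3%, 26.8%, 47.2% and 22.5%. With 16 separate arrays there were 2 calls with let-7a, 4 for both against let-7a and 3 for both against siSfpq, where 19.8%, 14.2% and 32.4% of all genes were called. With the replicate as a block, by which the samples pair, there were 1, 2 and 2, and 3 with siSfpq, and it changed no other call of these genes. Other imprinted genes called with let-7a, 8, were 5 with no filter and with an absolute change of at least 1 (3.77% and 3.02% of all genes called), and 0 to 18 on leaving out samples. With siSfpq, 11, they were 20 with 16 arrays (36% of all genes), 23 with the block (37.8%), 0 with only the groups compared (0%), 6 with an absolute change of at least 1 (4.93%), and 0 to 23 on leaving out samples.

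Changes of sign concerned values that had not passed the test. Igf2 with let-7a was 0.01 with normexp and with the authors' table and 0.06 with 16 arrays. Mirg was -0.32 with let-7a and -0.35 for both against siSfpq with the brightest probe, and -0.32 for the probe at chr12:110968992-110969051 alone, a fit chosen after the data were seen. H19 with siSfpq was 0.14 with no filter and 0.21 with the brightest probe or the probe at chr7:149761756-149761815 alone. Dlk1 with no filter was 0.25 with siSfpq and -0.28 for both against siSfpq. On leaving out samples, H19 ran from -0.47 to 0.16 and Igf2 from -0.22 to 0.19 with let-7a. With siSfpq, H19 ran from -0.25 to 0.33, Dlk1 from -0.36 to 0.02, Peg10 from -0.17 to 0.32 and Cdkn1c from -0.08 to 0.31, and Grb10 for both against let-7a ran from -0.07 to 0.42. On leaving out samples Meg3 with siSfpq ran from -1.56 to -1.09 and Mirg from -0.87 to -0.61. Under the other settings run, both also stayed below 0, but were as small as -0.13 for Meg3 with no filter and -0.29 for Mirg with the brightest probe. With so few samples, and with Peg3, Dlk1, Igf2 and most H19 probes at or near background, small changes were not detectable here.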

Other observations

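Of 23 listed genes of the Igf axis, through which Igf2 and Grb10 act and which hold both of them, 21 were tested. Limma called 4 with let-7a (3 higher, 1 lower), 4 with siSfpq (1 higher, 3 lower) and 2 with both (1 higher, 1 lower), with medians of -0.02, -0.05 and 0.05, where 6.94%, 13.7% and 1.54% of all genes were called. With the replicate as a block there were 7, 11 and 3 calls, against 21.7%, 37.8% and 8.15% of all genes, and without replicate 3 there were 10, 12 and 6, against 30.1%, 49.3% and 18.3%. Igfbp5, a binding protein that modulates Igf action, read 7.10, 6.99 and 6.98 in control and 9.12, 8.08 and 9.43 with let-7a, and rose by 1.86 ± 0.30 (limma adjusted p = 0.00444). Grb14, an adaptor related to Grb10, read 7.50, 7.23 and 7.65 in control and 9.10, 8.92 and 9.16 with both agents, and rose by 1.60 ± 0.23 (limma adjusted p = 0.00619). With let-7a alone it rose by 0.91 (limma adjusted p = 0.0336). With siSfpq the binding proteins Igfbp4 and Igfbp2 fell by 1.23 and 0.97 (limma adjusted p = 0.0189 and 0.00883). Igf1r, the receptor of Igf1 and Igf2, read 12.46, 12.48 and 12.66 in control and 11.26, 12.33 and 11.32 with siSfpq, and fell by 0.90 (limma adjusted p = 0.0259). Irs4, a docking protein of these receptors, rose by 0.69 (limma adjusted p = 0.0438).

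Of 15 regulators of imprints, all tested, 3 were higher and 0 lower with siSfpq, where 13.7% of all genes were called, and 7 higher and 2 lower with the replicate as a block, where 37.8% were. Without replicate 3, where 49.3% were, 6 were higher and 1 lower. The 3 were named after their values were seen. Dppa3, which protects methylation marks in the egg and early embryo, rose by 2.99 ± 0.84 (limma adjusted p = 0.0388), Dnmt3l, a partner of the methyltransferases that set imprints, by 1.91 ± 0.50 (0.0292), and Hells, a chromatin remodeller, by 0.59 ± 0.16 (0.0346). With both agents 1 was higher, where 1.54% of all genes were called. With let-7a limma called 0 of 15, where 6.94% of all genes were called, and 6 had an unadjusted p under 0.05, where 20.8% did. It called 6 lower with the replicate as a block and 8 lower without replicate 3, where 21.7% and 30.1% of all genes were called. Methylation was not measured.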
